A study of Mus musculus with 148 samples.

Results

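Expression of 6 genes that carry, take up, export or store lipid was described across the myeloid immune cells of the lung and primary tumor in a mouse model of breast cancer metastasis: Apoe, Cd36, Abca1, Abcg1, Dgat2 and Plin2. They were listed by name and found as 6 of the 52634 gene rows of the count tables, and their levels were taken in 16 myeloid labels. The list was selected on expression values of these same samples, with no single comparison given as its basis, so the levels across cell labels are given as a description, and the adjusted p-values of the tissue comparisons show where each gene stood among all genes tested and are not independent evidence for the choice. Expression was measured by plate-based single-cell RNA-seq in 63 samples, each the cells of 1 mouse and 1 tissue, from 27 mice. Female C57BL/6 mice carrying PA-GFP, a fluorescent protein that is switched on by light, received EO771-tdTomato breast cancer cells mixed with Matrigel in a mammary gland at 8 weeks of age. The lung groups were Control lung (3 samples, PA-GFP mice with no tumor), Pre-MET lung (3 samples, mice still bearing the primary tumor), Relapse-free lung (6 samples, tumor resected 3 weeks after injection and no metastasis found) and Distal normal tissue (14 samples, tdTomato-free tissue of lungs with metastases after resection). Metastasis-bearing lungs also gave Metastasis (13 samples of lesion-containing tissue), Metastasis core (13 samples) and Invasive margin (7 samples). Core and margin samples were cells photoactivated under the microscope. Some plates of Relapse-free lungs also held photoactivated cells, and the authors photoactivated lungs of control mice as well. The Primary tumor gave 4 samples before resection. All mice, the controls included, carried PA-GFP, cells were sorted as CD31-CD45+ or, after photoactivation, as CD31-GFP+, and the tumor cells of every mouse came from 1 cell line.

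Macrophages and monocytes take up lipid from lipoproteins and dying cells, store it in droplets and return cholesterol to the circulation. Apoe encodes apolipoprotein E, a secreted lipoprotein component that accepts and carries lipid. Cd36 encodes a scavenger receptor for oxidised lipoproteins and long-chain fatty acids, Abca1 and Abcg1 encode membrane transporters that export cholesterol to apolipoproteins and to high density lipoprotein, Dgat2 encodes an enzyme of the last step of triglyceride synthesis, and Plin2 encodes perilipin 2, a protein that coats lipid droplets. Alveolar macrophages clear lipid-rich surfactant, and macrophages that express Trem2 and Gpnmb are known for lipid handling in several tissues.

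On the GRCm38 build Apoe lies at chr7:19696109-19699188, Cd36 at chr5:17781690-17888801, Abca1 at chr4:53030787-53159895, Dgat2 at chr7:99153658-99182719 and Plin2 at chr4:86648386-86670060, all on the minus strand, while Abcg1 lies at chr17:31057675-31117988 on the plus strand, all annotated as protein-coding genes. RefSeq promoter entries of the same build (GRCm38.p6) matched 4 of the 6 genes. The 250 bases before the start are shown because several of the 6 genes are known targets of nuclear receptors that bind repeated half-sites. These bases were searched on both strands for the spaced repeats AGGTCANAGGTCA, with up to 2 mismatches, and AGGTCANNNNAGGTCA, with up to 3 mismatches. Capitals mark the whole stretch of a match, with its spacer and mismatched letters.
Abca1, chr4:53159896-53160145, minus strand: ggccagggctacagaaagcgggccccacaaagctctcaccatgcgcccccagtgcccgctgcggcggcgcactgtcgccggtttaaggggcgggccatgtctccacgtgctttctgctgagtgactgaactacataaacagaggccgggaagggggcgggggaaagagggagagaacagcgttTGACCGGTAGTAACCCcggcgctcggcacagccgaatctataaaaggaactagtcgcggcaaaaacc
Plin2, chr4:86670060-86670309, minus strand: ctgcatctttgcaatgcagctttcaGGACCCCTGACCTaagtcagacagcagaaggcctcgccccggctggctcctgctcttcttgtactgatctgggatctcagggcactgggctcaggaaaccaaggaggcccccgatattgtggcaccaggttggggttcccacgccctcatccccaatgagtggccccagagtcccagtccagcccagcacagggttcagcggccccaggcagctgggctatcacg
Cd36, chr5:17835897-17836146, minus strand, an internal start of the gene: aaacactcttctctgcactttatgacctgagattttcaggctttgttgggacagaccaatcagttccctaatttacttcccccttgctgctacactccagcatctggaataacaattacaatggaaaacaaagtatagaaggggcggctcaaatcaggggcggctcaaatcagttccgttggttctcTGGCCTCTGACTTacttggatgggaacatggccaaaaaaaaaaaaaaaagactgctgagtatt
Apoe, chr7:19699189-19699438, minus strand, the one of 3 entries that adjoins the annotated start: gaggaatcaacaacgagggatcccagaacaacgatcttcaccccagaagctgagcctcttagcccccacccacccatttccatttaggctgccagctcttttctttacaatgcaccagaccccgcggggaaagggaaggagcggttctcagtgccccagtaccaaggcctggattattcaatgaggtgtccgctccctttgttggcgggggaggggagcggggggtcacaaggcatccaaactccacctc
The repeat with the 4-base spacer was matched in Abca1, 67 to 52 bases before the start and with 3 mismatches. The repeat with the 1-base spacer was matched in Plin2, 225 to 213 bases before the start, and in Cd36, 63 to 51 bases before it, each with 2 mismatches. In Apoe no match was found in this window. Of 32536 promoters of the same length, 3.25% held the repeat with the 1-base spacer and 18.5% that with the 4-base spacer. A match is a description of these letters and does not show binding.

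The myeloid part of the annotation held 13014 of 23425 immune cells. UMI counts (distinct molecules) were summed over the cells of 1 label in 1 sample, and 285 sums of at least 10 cells and 5720 to 731354 UMIs were used, with a median of 49195 UMIs. Levels are CPM, UMIs of the gene per 1000000 UMIs of the sum, and since 3' UMIs are counted once per molecule they are not divided by gene length and are compared within a gene. The cell labels of the annotation were set against marker lists. The patrolling monocyte list (Ace, Nr4a1 and others) summed to a mean of 3198 CPM in Mon_Ace against 1063 CPM in Mon_Fn1, and the inflammatory list (Ly6c2, Ccr2, Fn1 and others) to 1299 CPM against 5982 CPM. The alveolar macrophage list summed to 16646 CPM in Mac_Cd9, and Trem2, Gpnmb and Cd63 summed to 4521 CPM in Mregs, regulatory macrophages, against 758 CPM in Mac_Isg20 and 530 CPM in Mac_Cd81, the tumor-associated macrophages. Primary tumor cells were the deepest, with a median of 3525 UMIs per cell against 812 to 1201 elsewhere, and the plates of the Control mice were the only ones of their sequencing batch.

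Apoe, the lipid carrier, ranged widely between labels, with the highest mean in Mregs and the lowest means in neutrophils, dendritic cells and alveolar macrophages. Mregs held 13434 ± 7935 CPM (mean and SD over 14 samples), followed by 7057 ± 5791 CPM (n = 9) in Mac_Cd81, 2528 ± 1565 CPM (n = 32) in Mon_Ace, 2081 ± 1475 CPM (n = 23) in Mon_MHC-II and 2007 ± 1482 CPM (n = 15) in Mac_Isg20. Mon_Thbs1, at 847 ± 589 CPM (n = 25), and Mon_Fn1, at 723 ± 771 CPM (n = 54), followed, and neutrophil and dendritic cell labels were at 3.99 to 217 CPM. The neighbours in this order overlapped, and the lowest Mreg samples, at 3905 and 4518 CPM, lay within the range of Mon_Ace, which reached 5895 CPM, and of Mon_MHC-II, which reached 5698 CPM. These means pool tissues that differ in level and in their share of each label. The place of Mac_Cd81 rested on 4 Primary tumor samples with a mean of 10968 CPM and on 1 Metastasis sample at 14678 CPM, and in the Metastasis core Mac_Cd81 held 1093 ± 880 CPM (n = 3) against 1602 ± 1172 CPM (n = 7) in Mac_Isg20 and 12716 ± 9313 CPM (n = 3) in Mregs. Mac_Cd9, the alveolar macrophages, held 54.7 ± 64.7 CPM (n = 11, 0 to 224 CPM), fewer than any monocyte label, and the highest of their 11 samples lay below the lowest Mreg sample at 3905 CPM. Within samples that had both labels, Apoe was higher in Mregs than in Mac_Isg20 in 9 of 9, by 2.45 ± 0.82 on the log2 scale. It was lower in Mon_Fn1 than in Mon_Ace in 31 of 31, by a log2 ratio of -1.92 ± 1.20. In lymphocyte labels the mean was 18.2 to 178 CPM outside B cells, which averaged 434 ± 784 CPM (n = 30, 0 to 4294 CPM).

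**Figure D1:**
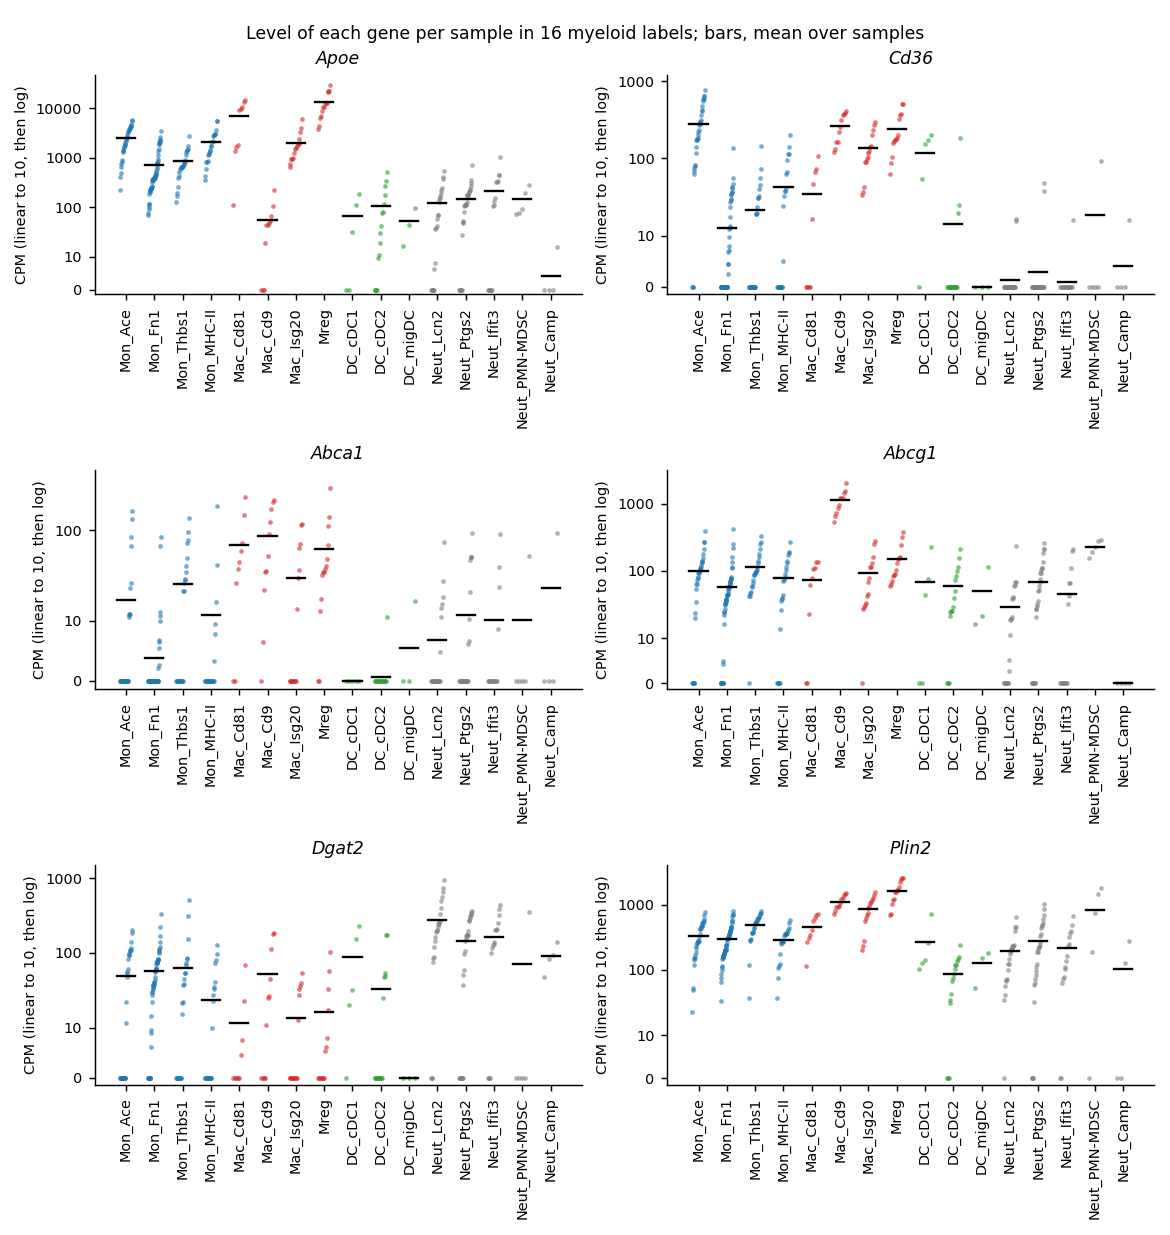
Level of each of the 6 genes in 16 myeloid labels, in CPM of the summed cells, on an axis that is linear to 10 and logarithmic above it; each point is 1 sample and each bar the mean over samples. Apoe peaks in Mreg at 13434 CPM, Abcg1 in Mac_Cd9 at 1120 CPM, Plin2 in Mreg at 1648 CPM and Dgat2 in Neut_Lcn2 at 275 CPM.

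Cd36, the uptake receptor, had its highest means in monocytes with a patrolling profile and in 2 of the 4 macrophage labels, Mac_Cd9 and Mregs. It averaged 278 ± 213 CPM (n = 32, 0 to 761 CPM) in Mon_Ace, 265 ± 112 CPM (n = 11, 122 to 412 CPM) in Mac_Cd9 and 242 ± 146 CPM (n = 14, 62.8 to 508 CPM) in Mregs, and these 3 overlapped. The means pool tissues of unlike level, and in the 3 Control mice every Mon_Ace sum (560 to 761 CPM) lay above every Mac_Cd9 sum (131 to 412 CPM). In Relapse-free lungs (80.8 to 412 against 165 to 390 CPM) and Distal tissue (68.5 to 641 against 218 to 368 CPM) these labels overlapped. In the core the Mon_Ace sums (0 and 61.8 CPM) lay below all Mreg sums (62.8 to 325 CPM). In the margin (0 and 293 against 173 to 508 CPM) and in Metastasis samples (116 to 650 against 86.0 to 500 CPM) Mon_Ace and Mregs overlapped. Mac_Isg20 held 135 ± 82.8 CPM and cDC1, a cross-presenting dendritic cell, 117 ± 86.5 CPM, while Mac_Cd81 held 34.3 ± 40.1 CPM (n = 9), with 3 of its 4 Primary tumor sums at 0. Mon_Fn1 held 12.4 ± 23.1 CPM, with 30 of 54 sums at 0, and Cd36 was lower in Mon_Fn1 than in Mon_Ace in 28 of 31 samples with both. The neutrophil labels Neut_Ptgs2, Neut_Lcn2 and Neut_Ifit3 held 2.94, 1.33 and 0.991 CPM, and lymphocyte labels 0 to 14.7 CPM.

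The efflux transporters differed from each other. Abcg1 averaged 1120 ± 430 CPM in Mac_Cd9 (n = 11), and its lowest sample there, at 531 CPM, lay above the highest sample of any other label, 423 CPM in Mon_Fn1. The 3 Control samples held 1223, 1444 and 656 CPM in Mac_Cd9, the 4 Relapse-free samples 1193, 867, 1522 and 1992 CPM, the 3 Distal samples 531, 958 and 1197 CPM and the only Metastasis sample 732 CPM, so that the tissues overlapped. PMN-MDSC, a suppressive neutrophil label, followed with 227 ± 58.1 CPM (n = 5), then Mregs with 150 ± 97.9 CPM, Mon_Thbs1 with 115 ± 79.4 CPM and Mon_Ace with 101 ± 89.7 CPM. Abca1 was sparse, with 131 UMIs in all in the label with the most. Its highest means were 87.3 ± 80.3 CPM in Mac_Cd9, 68.9 ± 75.8 CPM in Mac_Cd81 and 62.1 ± 77.2 CPM in Mregs, which did not differ beyond their spread, while 44 of 54 Mon_Fn1 sums were at 0. B cells, which are no myeloid cells, held 78.6 ± 121 CPM of Abca1.

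Dgat2, the triglyceride synthesis enzyme, had its highest means in 4 of the 5 neutrophil labels. It averaged 275 ± 242 CPM (n = 24, 0 to 935 CPM) in Neut_Lcn2, 164 ± 136 CPM (n = 16) in Neut_Ifit3, 145 ± 126 CPM (n = 29) in Neut_Ptgs2 and 91.2 ± 38.0 CPM (n = 4) in Neut_Camp, all overlapping within their SDs. These means pool tissues. In Metastasis (224 against 138 CPM) and Invasive margin samples Neut_Ptgs2 had a higher mean than Neut_Lcn2. In Relapse-free, Pre-MET, Distal and core samples Neut_Lcn2 had the higher mean. PMN-MDSC, the fifth neutrophil label, was at 0 in 4 of 5 sums and at 354 CPM in the other (mean 70.7 CPM), below the 86.9 ± 99.1 CPM (n = 5) of cDC1. Mon_Fn1, at 56.4 ± 60.1 CPM, and Mon_Ace, at 49.5 ± 59.8 CPM, were lower, and Mregs, Mac_Isg20 and Mac_Cd81 held 16.4, 13.5 and 11.6 CPM. Dgat2 was higher in Neut_Lcn2 than in Mon_Fn1 in 19 of 22 samples with both and higher in Neut_Ptgs2 in 19 of 28. Lymphocyte labels held 0 to 26.0 CPM.

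Plin2, the droplet coat, averaged 1648 ± 637 CPM (n = 14, 690 to 2557 CPM) in Mregs, 1119 ± 279 CPM (n = 11, 722 to 1516 CPM) in Mac_Cd9, 858 ± 430 CPM in Mac_Isg20 and 835 ± 780 CPM (n = 5, 0 to 1796 CPM) in PMN-MDSC. It was present in every sum of the 4 monocyte labels, at 487 ± 193 CPM in Mon_Thbs1, 337 ± 195 CPM in Mon_Ace, 301 ± 176 CPM in Mon_Fn1 and 291 ± 141 CPM in Mon_MHC-II. Within samples Plin2 was higher in Mregs than in Mac_Isg20 in 9 of 9, by 0.82 ± 0.54 on the log2 scale, and higher in Mon_Thbs1 than in Mon_Fn1 in 16 of 22. cDC2 held the least of the myeloid labels, 85.2 ± 67.3 CPM, and lymphocyte labels 6.53 to 62.5 CPM.

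Mac_Cd9 and Mregs were thus among the highest labels for Cd36, Abca1 and Plin2, whereas Abcg1 separated toward Mac_Cd9 and Apoe toward Mregs. Their tissues were largely different. Mac_Cd9 sums came from Control (3), Relapse-free (4), Distal (3) and Metastasis samples (1), and Mreg sums from Metastasis (7), core (3) and margin samples (4). Label and tissue can therefore hardly be told apart between these labels. Across the 16 labels (Pearson correlation of log2 of the mean CPM plus 1, a description over points that share samples and depth), Apoe and Plin2 correlated at 0.57, Cd36 and Plin2 at 0.68, Abcg1 and Plin2 at 0.70, and Abca1 and Plin2 at 0.63, while Dgat2 ran between -0.25 and -0.05 with the others. Of 7487 genes that reached 50 CPM in a label, those most like each gene included Ctsb (0.85) and Ms4a4a (0.85) for Apoe, and were Cuta (0.90), Cstf2 (0.87) and Lap3 (0.87) for Cd36. They were Ugp2 (0.79), Txnrd1 (0.76) and Pip5k1a (0.75) for Abca1, and Scarb2 (0.94), Sgk1 (0.92) and Ppp2r5e (0.91) for Abcg1. Dgat2 was most like Svil (0.92), Fosl2 (0.92) and Smap2 (0.92), and Plin2 most like F7 (0.92), Gpnmb (0.91) and Ftl1 (0.88).

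To ask how the genes differed between tissues within 1 label, 16 comparisons were made with edgeR's quasi-likelihood test on the sums, with Benjamini-Hochberg adjustment over all genes tested and a call at an adjusted p under 0.05. Of 96 pairs of gene and comparison, 38 passed the filter on low counts, and a gene near 0 in one group passed only where it was higher in the other. Apoe passed in 14 comparisons, Plin2 in 13, Cd36 in 6, Abcg1 in 3, Dgat2 in 2 and Abca1 in none. Apoe was called in 4 comparisons, lower each time, and no other of the 6 genes was called. In these 4 comparisons 0.336%, 0.0427% and 1.06% (Mon_Fn1) and 8.25% (Mac_Cd81) of all genes tested were called. In 11 of the 96 pairs the groups did not overlap, 3 each for Apoe and Plin2, 2 each for Cd36 and Dgat2 and 1 for Abca1. Of these, 10 were among the 38 pairs that passed the filter, where 7.1% of all tests of all genes had groups that did not overlap. With few samples such separation is common. Between Pre-MET and Control lungs, with 3 samples each, it was found in 2 of 4 of the genes tested in Mon_Fn1 against 22.9% of all genes tested, and in 2 of 3 in Mon_Ace against 18.2%. Between Pre-MET and Relapse-free lungs it was found in 3 of 4 in Mon_Fn1 against 3.23%. Between Relapse-free and Control lungs it was found in 1 of 3 in Mon_Ace against 4.5%. Between Invasive margin and core it was found in 1 of 3 in Mregs against 3.8%, and between core and Primary tumor in 1 of 2 in Mac_Cd81 against 26.6%. The 6 genes were chosen on values of these samples, and Dgat2, at 0 in every Control sum of Mon_Fn1, passed the filter there only through the Pre-MET samples, so that nothing is read from these counts. The comparisons share groups (Control, Relapse-free, Pre-MET and Distal samples each enter several) and are not independent of one another, and n counts mice.

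Apoe was lower in the Mon_Fn1 monocytes of Pre-MET lungs than in those of Control or Relapse-free lungs. The 3 Control samples held 2271, 2136 and 2111 CPM, the 3 Pre-MET samples 234, 217 and 188 CPM, and the 6 Relapse-free samples ran from 381 CPM over a median of 1456 CPM to 3500 CPM. Every Pre-MET sample lay below every Control and every Relapse-free sample. Against Control lungs Apoe fell by 3.36 on the log2 scale (SE 0.23, 10.2-fold lower, edgeR adjusted p = 2.62e-06) and ranked first by p of 3273 genes. It was 1 of 4 of the genes described here that were tested in this comparison, where 0.336% of all genes tested were called. Against Relapse-free lungs Apoe fell by 2.80 (SE 0.43, 6.97-fold lower, edgeR adjusted p = 0.00132) and ranked first of 4680 genes, and was again 1 of 4 tested, against 0.0427% of all genes tested.

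Control samples were sequenced in a batch of their own, so that the difference from Control lungs and the batch cannot be told apart. Relapse-free and Pre-MET samples shared 2 batches, with the same 2 Relapse-free mice in both and 2 and 3 Pre-MET mice, so that the batches are not independent, and in these the Pre-MET mean was 231 CPM against 1505 CPM and 191 CPM against 1025 CPM. With the plates of the shared batches alone, 3 Pre-MET against 2 Relapse-free mice and so below the minimum of 3 set for the comparisons, Apoe fell by 2.50 on the log2 scale (edgeR adjusted p = 1.39e-04). With cells of at least 1000 UMIs, which left 5 Relapse-free samples, it fell by 2.78 and the call was lost (adjusted p = 0.0625, over all alternatives 1.07e-09 to 0.0625). Counted per cell at 500 UMIs each, 6.02 ± 1.72% of Pre-MET Mon_Fn1 cells held an Apoe UMI, against 40.0 ± 3.90% in Control and 33.0 ± 14.5% in Relapse-free lungs (12.7%, 55.2% and 50.8% before thinning). T and NK cells of the same groups, which should lack Apoe, held it in 1.17%, 2.13% and 3.17% of cells, with the Pre-MET group again the lowest.

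Markers of other cells moved with these groups in part. In Mon_Fn1 the patrolling monocyte list (6 of 6 detected) summed to 1129 to 2139 CPM in Control, 887 to 1583 CPM in Relapse-free and 720 to 853 CPM in Pre-MET samples, while the alveolar macrophage list summed to 658 to 1163, 649 to 4612 and 1677 to 3025 CPM. Of that list 7 of 8 genes were detected in each group, with Car4 at 0 in Control and Relapse-free samples and Krt79 at 0 in Pre-MET samples. In Mon_Fn1 of the Metastasis core the list summed to a mean of 2140 CPM with UMIs of only 2 genes, Chil3 and Ear2. How much of the other sums came from these 2 genes was not broken down. The neutrophil list summed to 129 to 548 CPM in Control, 475 to 7501 CPM in Relapse-free and 1087 to 2216 CPM in Pre-MET samples. The Mreg list summed to 0 to 148, 0 to 119 and 62.5 to 82.1 CPM, with Gpnmb at 0 in Control and Pre-MET samples. Lists of other cells that were lower in Pre-MET than in Control samples without overlap were those of NK cells (0 to 3.24 against 26.9 to 36.9 CPM), T cells (25.9 to 30.4 against 40.3 to 55.4 CPM) and dendritic cells (158 to 253 against 282 to 439 CPM). In Relapse-free samples these ran from 0 to 33.1, 0 to 91.1 and 83.3 to 362 CPM. The Control sums of Mon_Fn1 held 36474 to 74429 UMIs in all, so that their NK and T cell values rest on few UMIs. The part of these cells in the difference was not tested.

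**Figure D2:**
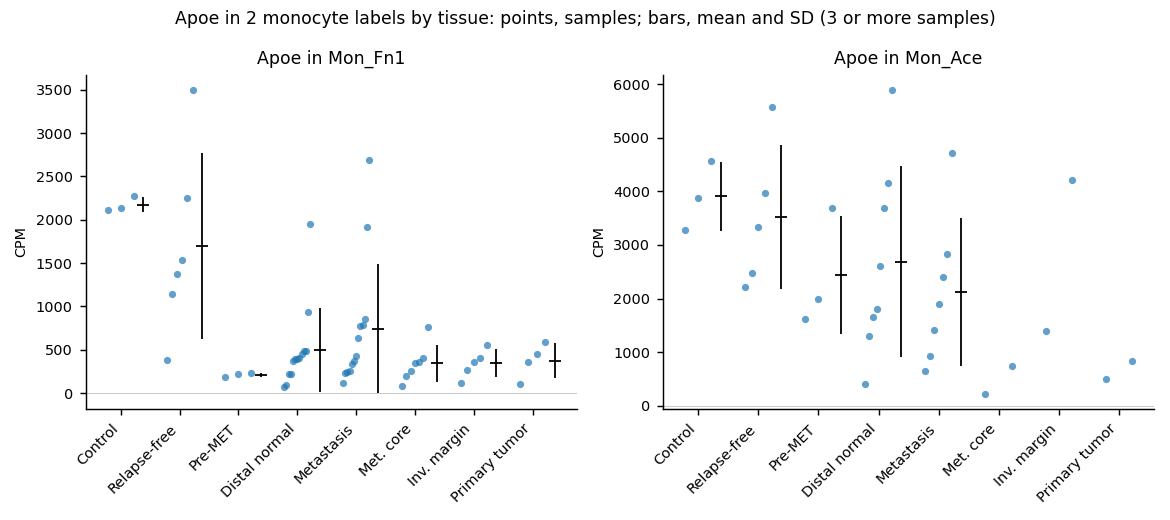
Apoe level by tissue in Mon_Fn1 and Mon_Ace monocytes, in CPM of the summed cells; points are samples, and bars are the mean and SD where a tissue has at least 3 samples. In Mon_Fn1 the 3 Pre-MET samples (188 to 234 CPM) sit below all Control samples (2111 to 2271 CPM) and all Relapse-free samples, while in Mon_Ace they lie at 1622 to 3688 CPM and overlap both groups.

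In Mon_Fn1 of Distal normal tissue Apoe was lower than in Relapse-free lungs, with a wide spread. The 13 Distal samples ran from 70.5 CPM over a median of 395 CPM to 1949 CPM, and overlapped the Relapse-free samples. Apoe fell by 1.74 on the log2 scale (SE 0.38, 3.35-fold lower, edgeR adjusted p = 0.0113), 1 of 2 of the 6 genes tested, against 1.06% of all genes tested. The call was lost in the shared batches with batch as a term, which left 3 of the 6 Relapse-free and 10 of the 13 Distal samples (-1.33, adjusted p = 0.919). The part of either change in this was not tested. It was also lost with DESeq2 (adjusted p = 0.0749), with cells of at least 1000 UMIs (adjusted p = 0.0963) and without the Relapse-free mouse 7 (adjusted p = 0.0795) or 11 (adjusted p = 0.0745), while the direction held in all 14 alternatives. Within the 3 shared batches, each with 1 Relapse-free mouse, the Distal mean was 453 CPM against 1139 CPM, 512 CPM against 3500 CPM and 710 CPM against 381 CPM, so that 1 of the 3 ran the other way. Relapse-free and Control lungs were not separated in Mon_Fn1 (log2 difference -0.50, SE 0.38, adjusted p = 0.860, 0 of 2 tested), and 0% of all genes tested were called by edgeR there, with 172 of 2423 at an unadjusted p under 0.05 and 0 called by DESeq2.

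Mon_Ace monocytes, which held more Apoe, gave no Apoe call. Control samples held 3875, 4572 and 3279 CPM, Pre-MET samples 3688, 1997 and 1622 CPM, and Relapse-free samples 2223, 3336, 5574, 2477 and 3972 CPM, so that all groups overlapped. The log2 difference of Pre-MET from Control lungs was -0.77 (SE 0.26, adjusted p = 0.232), with 0 of 3 genes called by edgeR, 2 at an unadjusted p under 0.05 and 0 called by DESeq2, where 0.371% of all genes tested were called. Without the Pre-MET mouse 8 it was -1.14 (adjusted p = 0.0283). Pre-MET and Relapse-free lungs differed by -0.61 (SE 0.33, adjusted p = 0.992), and the means within the shared batches were 3403 CPM against 4783 CPM and 1803 CPM against 1454 CPM. Relapse-free differed from Control lungs by -0.12 (SE 0.29, adjusted p = 0.997) and Distal tissue from Relapse-free lungs by -0.48 (SE 0.36, adjusted p = 0.957). No one of the 3 genes tested was called in these comparisons, where 0%, 0% and 0.548% of all genes tested were called by edgeR. At an unadjusted p under 0.05 stood 120, 103 and 67 of all genes and 0, 1 and 0 of the 3, and DESeq2 called 0, 0 and 6 of all genes.

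Since the Mon_Fn1 and Mon_Ace sums of a sample share its batch, the log2 ratio of Apoe in Mon_Fn1 to Mon_Ace was compared between groups. It was -3.42 ± 0.48 in Pre-MET (n = 3), -0.83 ± 0.24 in Control (n = 3) and -1.52 ± 1.06 in Relapse-free lungs (n = 5). The difference of Pre-MET from Control lungs was -2.59 (exact permutation test, two-sided p = 0.1, the smallest this design allows) and that from Relapse-free lungs -1.90 (exact permutation p = 0.107, smallest possible 0.0179), where the Relapse-free mouse 35 had a ratio of -3.38. Distal tissue, at -2.44 ± 1.37 (n = 8), differed from Relapse-free lungs by -0.92 (exact permutation p = 0.223). Adjusted over the 3 comparisons the exact permutation p-values were 0.161, 0.161 and 0.223. Between Pre-MET and Control lungs no outcome could have passed 0.05. The ratios there, -3.97 to -3.11 against -1.10 to -0.63, did not overlap. The share of all genes with such a separation was not counted, and the ratio was formed after seeing the data. Nothing is read from it.

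Mon_MHC-II monocytes were not among the comparisons tested and are described by their values. Apoe was at 2078, 3592 and 5698 CPM in Control, 2833 to 3086 CPM in 4 Relapse-free and 359, 878 and 2943 CPM in Pre-MET samples. The highest Pre-MET sample overlapped both other groups.

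Cd36 in Mon_Ace had its highest mean in Control lungs. Control samples held 761, 586 and 560 CPM, Pre-MET samples 222, 174 and 296 CPM and Relapse-free samples 269, 233, 171, 80.8 and 412 CPM. Control samples lay above all samples of both other groups. Marker lists differed between the same Mon_Ace sums. Between Control and Pre-MET samples the patrolling list (3433 to 3909 against 2439 to 2861 CPM) and the NK cell list (43.4 to 56.0 against 0 to 20.2 CPM) were lower in Pre-MET without overlap. The inflammatory monocyte list (206 to 476 against 605 to 1005 CPM) and the neutrophil list (369 to 911 against 927 to 1099 CPM) were higher without overlap. In Relapse-free samples the 4 lists ran from 2546 to 4591, 0 to 36.8, 421 to 1519 and 332 to 3156 CPM. Their part in the differences of Cd36 and of Dgat2 in Mon_Ace was not tested. The log2 difference from Control was -1.50 (SE 0.36, edgeR adjusted p = 0.107) in Pre-MET and -1.42 (SE 0.43, edgeR adjusted p = 0.997) in Relapse-free lungs, and neither passed, nor in any of 12 and 15 alternatives. These samples are confounded with the Control batch, so the batch and the group cannot be told apart. Distal tissue held 281 ± 202 CPM (n = 8) and Metastasis 350 ± 211 CPM (n = 7). They reached 641 and 650 CPM and so overlapped the Control samples. In Mon_Fn1 Cd36 did not pass the filter in any comparison.

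Dgat2 was at 0 UMIs in every Control sum of Mon_Ace, Mon_Fn1 and Mon_MHC-II. In Mon_Fn1 the 3 Pre-MET samples held 69.9, 77.8 and 77.5 CPM and the Relapse-free samples 0 to 39.6 CPM with a median of 27.6 CPM. In Mon_Ace the Pre-MET samples held 0, 107 and 110 CPM and the Relapse-free samples 11.7, 55.2, 0, 53.9 and 108 CPM. The Control sums held 165073 UMIs in Mon_Fn1 and 250151 in Mon_Ace, and a count of 0 allows up to 18.2 and 11.99 CPM (3 UMIs over the group, counting error only). Over the pooled counts Dgat2 stood at 4.14-fold the limit of its label in Pre-MET Mon_Fn1 and at 6.97-fold in Pre-MET Mon_Ace. In Relapse-free lungs it stood at 1.66-fold and 4.13-fold. These ratios leave out the spread between mice. Control samples had a batch of their own, so that group and batch cannot be told apart. The neutrophil and inflammatory monocyte lists, whose cells also held Dgat2, were higher in the Pre-MET sums of Mon_Ace too, as given above for Cd36. In Mon_Fn1 the neutrophil list was at 1087 to 2216 CPM in Pre-MET against 129 to 548 CPM in Control samples. Its part in the difference of Dgat2 was not tested. In Mon_Fn1 the difference from Control did not pass edgeR's test (adjusted p = 0.139), and in Mon_Ace Dgat2 did not pass the filter.

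Between Pre-MET and Relapse-free lungs, Dgat2 and Plin2 in Mon_Fn1 lay on opposite sides without passing the test. All 3 Pre-MET samples were above all 6 Relapse-free samples for Dgat2 (log2 difference 1.40, SE 0.64, edgeR adjusted p = 0.887). Within the batches these groups shared, Pre-MET mice held 84.8 to 102 CPM of Dgat2 against 0 CPM, and 16.2 to 77.8 CPM against 15.4 to 28.2 CPM. The latter ranges overlapped. For Plin2 the Pre-MET samples held 201, 159 and 175 CPM and lay below all Relapse-free samples, at 230 to 583 CPM with a median of 336 CPM (log2 difference -0.87, SE 0.35, edgeR adjusted p = 0.887). Control samples held 166, 309 and 110 CPM of Plin2 and overlapped the Pre-MET samples. Plin2 in Mon_Ace was at 423, 255 and 274 CPM in Pre-MET and 150, 217 and 154 CPM in Control lungs (log2 difference 0.78, SE 0.47, edgeR adjusted p = 0.609). It overlapped between Pre-MET and Relapse-free lungs (log2 difference -0.03, SE 0.46), and the difference between the labels was not tested. Abcg1 in Mon_Fn1 was at 130 ± 91.3 CPM in Control and 56.6 ± 25.1 CPM in Pre-MET lungs (log2 difference -1.14, SE 0.71, edgeR adjusted p = 0.512).

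**Figure D3:**
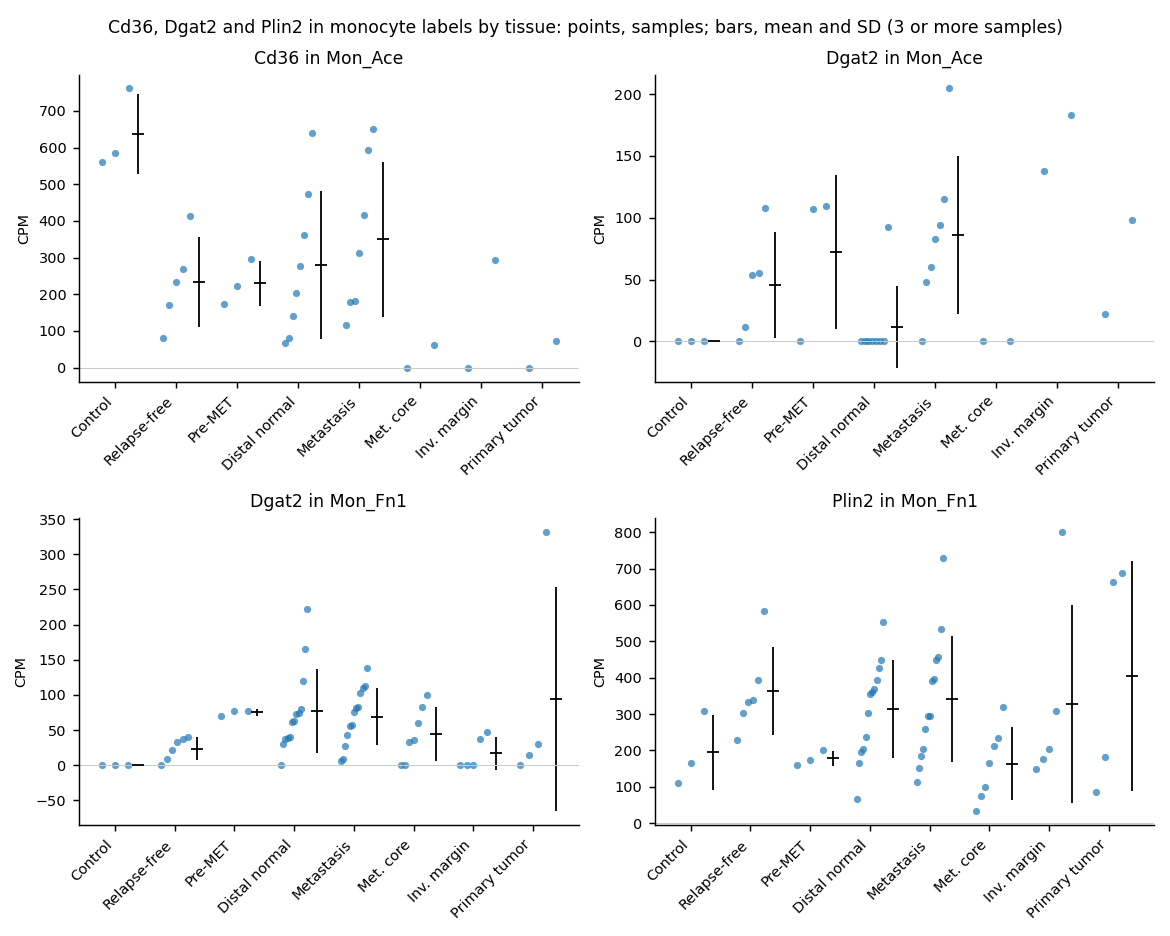
Levels by tissue of Cd36 and Dgat2 in Mon_Ace and of Dgat2 and Plin2 in Mon_Fn1, in CPM of the summed cells; points are samples, and bars are the mean and SD where a tissue has at least 3 samples. Cd36 in Mon_Ace has its highest mean in Control lungs (560 to 761 CPM), whose range Distal and Metastasis samples overlap. Dgat2 is at 0 in all Control samples of both labels.

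Within metastasis-bearing lungs none of the genes tested was called between Metastasis and Distal normal tissue. The values of all 6 overlapped in each of the 4 labels compared. The groups and log2 differences leave out the pairing of same-mouse sums (12 pairs in Mon_Fn1, 4 in Mon_Ace, 3 in Neut_Ptgs2 and 4 in Neut_Lcn2). Their overlap therefore does not describe the change within a mouse. Apoe in Mon_Fn1 ran from 114 CPM over a median of 428 CPM to 2693 CPM in 13 Metastasis samples (log2 difference 0.46, SE 0.40), and in Mon_Ace from 658 CPM over 1898 CPM to 4713 CPM in 7 (log2 difference -0.26, SE 0.38). Among 2 genes tested in Mon_Fn1 and 3 in Mon_Ace edgeR and DESeq2 called 0, none stood at an unadjusted p under 0.05, and edgeR called 0% of all genes tested in both labels, with 17 of 1292 and 22 of 671 at an unadjusted p under 0.05 and 0 called by DESeq2. In Neut_Ptgs2 and Neut_Lcn2 none of the 6 passed the filter, and edgeR called 0% of all genes tested in both, with 20 of 485 and 5 of 371 at an unadjusted p under 0.05 and 0 called by DESeq2. Dgat2 in Neut_Lcn2 averaged 225 ± 178 CPM (n = 6) in Distal tissue, 138 ± 100 CPM (n = 7) in Metastasis, 423 ± 246 CPM (n = 4) in Relapse-free lungs and 441 ± 434 CPM (n = 3) in the core, all overlapping. Plin2 in Neut_Lcn2 averaged 276 ± 180 CPM (73.5 to 461 CPM) in Distal tissue and 89.4 ± 78.3 CPM (0 to 234 CPM) in Metastasis. Dgat2 in Mon_Ace averaged 11.6 ± 32.8 CPM in Distal tissue and 86.3 ± 63.9 CPM in Metastasis. These sums include 4 same-mouse pairs, and the means leave out the pairing. Neither of these 2 differences passed the filter on low counts, and Plin2 in Neut_Lcn2 was called in 0 of the 2 alternatives that tested it. In Mon_Fn1 Apoe was the only gene tested between Invasive margin (118 to 554 CPM, n = 5) and core (75.4 to 759 CPM, n = 7), with a log2 difference of -0.04 (SE 0.46, edgeR adjusted p = 0.997), where 0% of all genes tested were called by edgeR, 26 of 538 stood at an unadjusted p under 0.05 and DESeq2 called 0.

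Mregs, with the highest means of Apoe and Plin2 over all tissues pooled, were compared between Invasive margin and core. In the core PMN-MDSC had the higher Plin2 mean, 1268 CPM (739 and 1796 CPM, n = 2) against 1150 CPM (n = 3) in Mregs, with overlap. Plin2 held 1714, 2484, 1855 and 2557 CPM in 4 margin samples and 690, 1202 and 1558 CPM in 3 core samples, which did not overlap. The log2 difference was 0.88 (SE 0.51, edgeR adjusted p = 0.997) and did not pass. Apoe held 21780, 30400, 13122 and 3905 CPM in the margin and 4518, 22842 and 10787 CPM in the core (log2 difference 0.46, SE 0.68), and Cd36 held 508 CPM in 1 margin sample and 173 to 184 CPM in the other 3 (log2 difference 0.40, SE 0.66, and -0.06 without the sample at 508 CPM). Of the 3 genes tested 0 were called by edgeR or DESeq2 and 0 stood at an unadjusted p under 0.05, and edgeR called 0% of all genes tested, with 19 of 1026 at an unadjusted p under 0.05 and 0 called by DESeq2. The 7 Metastasis samples of Mregs lay at 6516 to 22179 CPM of Apoe and 727 to 2550 CPM of Plin2.

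Between Metastasis core and Primary tumor, Apoe fell in Mac_Cd81 macrophages and did not pass the test in Mon_Thbs1 monocytes. In Mac_Cd81 the core samples held 113, 1347 and 1818 CPM and the Primary tumor samples 10953, 13789, 9711 and 9419 CPM. Every core sample lay below every tumor sample, in a comparison where the groups of 26.6% of all genes tested did not overlap. The core sums held 77 Apoe UMIs over 43 cells, with 1 UMI in the lowest, against 19007 in the Primary tumor sums. Apoe fell by 3.49 on the log2 scale (SE 0.52, 11.2-fold lower, edgeR adjusted p = 4.94e-04), 1 of 2 of the 6 genes tested, against 8.25% of all genes tested. With sums of at least 5 cells it fell by 2.34. Plin2 in the same sums held 395 ± 310 CPM and 400 ± 155 CPM (log2 difference -0.27, SE 0.53, adjusted p = 0.797, and 0.06 without the Primary tumor mouse 9). The 2 Metastasis samples of Mac_Cd81 held 1687 and 14678 CPM of Apoe. In Mon_Thbs1 Apoe was at 801 ± 490 CPM (n = 8) in the core and 414 ± 180 CPM (n = 4) in the Primary tumor (log2 difference 0.86, SE 0.46, adjusted p = 0.396), and 0 of 3 genes tested were called by edgeR or DESeq2 and 0 stood at an unadjusted p under 0.05, where 1.24% of all genes tested were called. The difference between the labels was not tested.

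Core and Primary tumor samples of Mac_Cd81 shared no sequencing batch, and the median depth was 1323 UMIs per cell in the core against 8661 in the Primary tumor, so that tissue and batch cannot be told apart. The neutrophil list summed to 475 to 1020 CPM in the core against 33.4 to 152 CPM, the erythroid list to 145 to 567 CPM against 0 to 4.56 CPM and the lung epithelium list to 0 to 113 CPM against 0. The Mreg list ran the other way, at 113 to 502 CPM in the core against 453 to 833 CPM in the tumor. So did the endothelial list, at 0 to 26.4 CPM against 46.1 to 94.2 CPM, and the tumor epithelium list, at 0 against 1.52 to 19.3 CPM. The part of other cells in the difference was not tested.

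Other genes of lipid handling were counted in 7 lists of 83 genes in all. None of the 83 was called by edgeR in any of the 16 comparisons, in which 2 to 28 of them were tested, while 13 of the 178 tests (7.30%) reached an unadjusted p under 0.05, below the 8.64% of all 28501 tests of all genes, and DESeq2 called 2, in comparisons where it called 98 of 2345 and 196 of 1563 genes. These were Fabp5, a fatty acid binding protein, in Mon_Thbs1 of core against Primary tumor (log2 difference -1.85, SE 0.57, edgeR adjusted p = 0.107, DESeq2 adjusted p = 0.0415), and Cd68, a macrophage scavenger receptor, in Mac_Cd81 (-1.01, SE 0.37, edgeR adjusted p = 0.0991, DESeq2 adjusted p = 0.0309). Their median log2 difference was 0.08 in Mon_Fn1 of Pre-MET against Control lungs (18 tested, 0.07 over all genes), -0.12 against Relapse-free lungs (28 tested, 0.02 over all genes), -0.84 in Mac_Cd81 of core against Primary tumor (9 tested, -0.31 over all genes) and -0.41 in Mon_Thbs1 (15 tested, -0.04 over all genes).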

How the data were processed

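Raw UMI counts per gene and well of 148 plates, which the authors deposited without normalization, were used together with the annotation of cells the authors deposited (mouse, tissue, sequencing batch and subpopulation). The authors demultiplexed reads with bcl2fastq 2.15.0.4, mapped them to mm10 with HISAT, excluded reads with several mapping positions, assigned reads to exons and collapsed them to UMIs. They discarded cells under 500 UMIs, clustered cells with metacell and named clusters from markers. Which release of the annotation was counted against is not given in the sources used here. Excluding reads with several positions can lower genes with near-identical copies. Cells were not clustered again, and doublets were not called.

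Of 56832 wells, 592 were left empty and held a median of 8 UMIs, and 24020 were annotated cells, of which 23425 immune cells were used, and 0 wells were named on more than 1 plate. UMI counts were summed per mouse, tissue and label in sums of at least 10 cells. Comparisons of 2 groups with at least 3 sums each were fitted with edgeR 4.0.16 (TMM, filterByExpr, quasi-likelihood F test, R 4.3.3) after the code was tested on simulated data, and adjusted over all genes tested. Levels and exact permutation tests used Python 3.11.15, pandas 2.3.3 and scipy 1.17.1. The alternatives were RLE size factors, DESeq2 1.42.0, no filter, other minimums of cells or UMIs, a left-out sample, relapse-free plates of photoactivated cells left out, and mouse as a block. Batch settings, leaving out the 6 relapse-free samples of Mon_Fn1 in turn and the ratio of Apoe between labels were added after seeing the data.

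Tissues of metastasis-bearing lungs came partly from the same mouse, so that same-mouse sums are pairs. The values printed are from fits without the pairing, and mouse as a block was fitted as an alternative. Their deviations from the group means correlated at 0.20 to 0.37 in Mon_Ace (4 pairs), -0.04 to 0.61 in Mon_Fn1 (12 pairs), 0.21 to 0.30 in Neut_Ptgs2 (3 pairs) and 0.15 to 0.54 in Neut_Lcn2 (4 pairs) between Metastasis and Distal tissue, and at 0.11 to 0.41 between margin and core in Mon_Fn1 (3 pairs).

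The 6 genes and the lists were chosen with earlier results of these data known. The 6 genes were always named. Of the other lipid genes, those called were to be named up to 3 in each direction, and the 3 genes most like each of the 6 across labels were named, except 1 that is not reported here. Positions are from GENCODE vM21 and promoters from RefSeq, both of the GRCm38 build, which mm10 corresponds to.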

Additional observations from a re-analysis of the deposited data

Results flagged for a closer look

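Of 26 groups of 4 to 10 samples tested for a sample far from the others, 1 held such a sample. Cd36 in Mregs of the Invasive margin was 508 CPM in mouse 32, while the other 3 samples lay between 173 and 184 CPM, and the gap to the nearest sample was 0.967 of the whole range (n = 4). Chance gives such a sample in about 1 of 20 groups.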

How the results depend on the processing

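Of 186 alternatives to the counts of called genes among the 6, 179 left the count as it was and 7 moved it. In Mon_Fn1 of Pre-MET against Relapse-free lungs the count of 1 went to 0 with cells of at least 1000 UMIs. In Mon_Fn1 of Distal tissue against Relapse-free lungs it went from 1 to 0 with DESeq2, with cells of at least 1000 UMIs and with batch as a term in the shared batches, and ranged from 0 to 1 when a Relapse-free sample was left out, with 0 without mouse 7 or 11. In Mon_Ace of Pre-MET against Control lungs it ranged from 0 to 1, with 1 without the Pre-MET mouse 8. The cause was not tested. Of 457 alternatives to the log2 differences of the 38 pairs of gene and comparison that passed the filter, 420 kept their direction and side of the threshold, 6 kept the direction without passing, 1 newly passed and 30 reversed, in 13 pairs with log2 differences of 0.40 or less in size, and 0 of the reversed values passed the test. In Mon_Ace of Pre-MET against Relapse-free lungs, cells of at least 1000 UMIs gave 0.13 for Cd36 and 0.12 for Plin2, and the shared batches 0.53 for Plin2. In Mon_Ace of Distal tissue against Relapse-free lungs, batch as a term gave -0.029 for Cd36 and -0.43 for Plin2, and no filter and sums of at least 5 cells gave -0.18 and -0.0073 for Plin2. In Mon_Ace of Metastasis against Distal tissue, sums of at least 20 cells gave -0.45 for Cd36 and -0.42 for Plin2, cells of at least 1000 UMIs -0.32 and -0.022, and the replicate block -0.47 for Cd36. In Mon_Fn1, Plin2 went to 0.12 without a filter (Pre-MET against Control), to 0.058 with batch as a term (Distal against Relapse-free) and, between Metastasis and Distal tissue, to 0.0011 with RLE size factors, 0.017 with DESeq2 and 0.013 with the replicate block, and Apoe to 0.15 without a filter (margin against core). In Mac_Cd81, Plin2 went to 0.072 with sums of at least 5 cells. Leaving out 1 sample gave, for the pairs that reversed, -0.33 to 0.0018 for Apoe (Relapse-free against Control), -0.35 to 0.26 for Cd36 and -0.24 to 0.31 for Plin2 (Pre-MET against Relapse-free) in Mon_Ace, -0.40 to 0.46 for Plin2 (Pre-MET against Control) and -0.24 to 0.17 for Apoe (margin against core) in Mon_Fn1, -0.062 to 0.96 for Cd36 in Mregs and -0.99 to 0.058 for Plin2 in Mac_Cd81. With mouse as a replicate block, 0 of the 6 genes were called in each of the 5 paired comparisons, as without the block; counts over all genes went from 0 to 1 in Mon_Ace and from 0 to 2 in Neut_Ptgs2 between Metastasis and Distal tissue. No block was fitted for Mregs, where fewer than 2 mice gave both tissues.

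Counts over all genes depended more on the setting. Without a filter, Mon_Fn1 gave 67 calls in place of 11 (Pre-MET against Control), 7 in place of 0 (Relapse-free against Control), 7 in place of 2 (Pre-MET against Relapse-free), 205 in place of 31 (Distal against Relapse-free) and 1 in place of 0 (margin against core), Mon_Ace 16 in place of 5 (Distal against Relapse-free) and Mon_Thbs1 51 in place of 29. DESeq2 gave 11 in place of 6 in Mon_Ace (Pre-MET against Control), 87 in place of 11 and 6 in place of 2 in Mon_Fn1 (Pre-MET against Control and Relapse-free), 98 in place of 29 in Mon_Thbs1 and 196 in place of 129 in Mac_Cd81. Sums of at least 5 cells gave 19 in Mon_Thbs1 and 48 in Mac_Cd81, and sums of at least 20 cells 71 in Mon_Thbs1, 0 in Mon_Ace (Distal), 1 in Mon_Fn1 (Pre-MET against Relapse-free) and 1 in place of 0 (margin against core). Cells of at least 1000 UMIs gave 0 and 0 in Mon_Ace (Pre-MET against Control, Distal), 7 and 0 in Mon_Fn1 (Pre-MET against Control and Relapse-free) and 14 in Mon_Thbs1. Without photoactivated plates Mon_Fn1 gave 1 and 16 (Pre-MET and Distal against Relapse-free), in the shared batches 7 (Pre-MET), and with batch as a term 0 in both Distal comparisons. Leaving out 1 sample gave 0 to 12 in Mon_Ace and 3 to 23 in Mon_Fn1 (Pre-MET against Control), 0 to 16 in Mon_Ace and 0 to 102 in Mon_Fn1 (Distal), 1 to 5 and 0 to 3 in Mon_Fn1 (Pre-MET against Relapse-free, Relapse-free against Control), 0 to 28 in Mon_Thbs1 and 62 to 224 in Mac_Cd81. Not run, for too few sums, were cells of at least 1000 UMIs in the margin comparisons and Mac_Cd81 and sums of at least 20 cells in Mregs and Mac_Cd81. Abca1 had too few UMIs to pass the filter in any comparison, and whether depth or a low level set this was not tested.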

Other observations

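Beyond the 6 genes, 59 of the 83 genes of lipid handling reached a mean of 50 CPM in a myeloid label, and 20 of these were highest in Mac_Cd9 (33.9%, against 10.3% of all genes reaching that level) and 7 in Mregs (11.9% against 3.93%). The lists were chosen with earlier results of these data known, so that these shares are a description and no test. The genes named next were chosen after their values were seen. Mac_Cd9 led for Lpl, the lipoprotein lipase, at 1456 ± 243 CPM (SD, n = 11), for Fabp1, a fatty acid binding protein, at 1228 ± 538 CPM, for the scavenger receptor Olr1 at 260 ± 147 CPM and for the lipid droplet protein Cidec at 237 ± 93.4 CPM, as well as for 7 genes of fatty acid oxidation and its regulators. Mregs (n = 14) led for the lysosomal genes Ctsd, at 8178 ± 3832 CPM, and Npc2, at 2170 ± 644 CPM, for Cd68, at 2147 ± 740 CPM, for Fabp5, at 762 ± 273 CPM, and for the cholesterol esterifying enzyme Soat1, at 338 ± 141 CPM.

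The 5 neutrophil labels together led for 14 of the 59 genes (23.7%, against 29.9% of all genes reaching that level), so that their share was no higher than that of all genes. Of these 14, again named after their values were seen, G0s2, an inhibitor of lipolysis, was at 4022 ± 2088 CPM in Neut_Lcn2, Hilpda, a droplet protein induced by low oxygen, at 1203 ± 924 CPM in PMN-MDSC, and Dgat1, which shares the last step of triglyceride synthesis with Dgat2, at 378 ± 273 CPM in Neut_Camp. In B cells Apoe varied with the sample, from 0 over a median of 303 CPM to 4294 CPM in 6 Metastasis samples against 102, 103 and 226 CPM in 3 Control and 50.9, 186 and 263 CPM in 3 Pre-MET samples, and these groups overlapped. The 2 Invasive margin samples, at 502 and 781 CPM, and the only Metastasis core sample, at 1354 CPM, lay above all Control and Pre-MET samples, while the 6 Relapse-free samples ran from 103 to 481 CPM. No test was made.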
